A study of Mus musculus with 12 samples.

Results

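The response of mouse tumours to an intravenous injection of Salmonella was compared between hosts with and without the receptor TLR4, by a difference of differences: the effect of Salmonella against PBS in TLR4 knockout hosts minus the same effect in wild-type hosts. The comparison used 12 of the 12 libraries of the series and tested 12164 of the 18609 listed genes. A negative value means a smaller rise, or a deeper fall, without TLR4, and a positive value the opposite. The tumours were of MC38, an established mouse colon cancer line, and were taken 1 day after the injection. The 4 groups were tumours of wild-type C57BL/6 mice given PBS, of wild-type C57BL/6 mice given Salmonella, of TLR4 knockout C57BL/6 mice given PBS, and of TLR4 knockout C57BL/6 mice given Salmonella, with 3 libraries each. The libraries of a group carry the names F-1, M-1 and M-2, and the labels do not explain the letters. The labels place the knockout in the host and do not say whether the tumour cells carry Tlr4. Nor do they state that each library is a separate animal, so p-values measure only the spread between these libraries, which may be technical.

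TLR4 is the cell-surface receptor for lipopolysaccharide of Gram-negative bacteria such as Salmonella. With its partner MD-2 (Ly96) and the carriers LBP and CD14 it signals through the adaptors MyD88 and TRIF to NF-kB and to interferon regulatory factors, which induce chemokines, cytokines and interferon-stimulated genes. Bacteria carry other ligands as well, such as flagellin and nucleic acids, which other sensors detect.

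Each library held between 30514112 and 38769095 fragments. Values are the deposited FPKM (fragments scaled by transcript length and library size). Effects and differences of effects are given as log2(FPKM + 0.5) after a rescaling between libraries, which understates the change of genes near 0. The median difference of effects over all tested genes was 0.03 on this scale and 0.16 with the FPKM as deposited, so a value is read against that shift. The wild-type libraries given Salmonella were the most variable group. The median SD over genes was 0.203 (n = 3) in that group and 0.104 to 0.131 in the other 3. Its M-2 library differed from F-1 and M-1 by an SD of 0.53 and 0.54 across genes, while F-1 and M-1 differed by 0.35. Results are therefore given with all 12 libraries and, where that library moves them, also with the other 11 ("with 11 libraries" below). That library was singled out after its position was seen, and the fit without it is not a better estimate.

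Tlr4 itself was detected in every library. It was at 2.58, 2.48 and 2.53 FPKM in wild-type hosts given PBS and at 2.62, 3.78 and 2.58 in wild-type hosts given Salmonella. In knockout hosts it was at 2.14, 3.15 and 1.59 with PBS and at 1.72, 1.96 and 1.82 with Salmonella. The 3 knockout libraries given Salmonella lay below the 6 wild-type libraries, and the knockout libraries given PBS overlapped them. The gene-level value therefore does not check the knockout label, since it does not show which exons or cells the transcripts came from. The difference of differences for Tlr4 was -0.53 (SE 0.28, limma adjusted p = 0.379). The label gives the cells as colon cancer cells, while the epithelial genes Epcam, Cdh1, Krt8, Krt18, Vil1, Cldn7 and Lgals4 were at or near 0, with highest values from 0.0411 to 0.45 FPKM over the 12 libraries. Krt19 and Krt20 reached at most 2.13 and 1.82 FPKM.

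Which genes answered to Salmonella in both kinds of host was first read from the 2 effects. In wild-type hosts 2086 of the 12164 tested genes rose (17.1%) and 2335 fell (19.2%) at an adjusted p under 0.05 (limma, Benjamini-Hochberg). In knockout hosts 53 rose (0.436%) and 37 fell (0.304%). The tests of both effects share an estimate of the spread over all groups, so the wild-type libraries bear on the knockout calls. With 11 libraries, 374 rose and 335 fell in knockout hosts, of 12060 tested, though the library left out is a wild-type one. The counts in knockout hosts below are those with all 12 libraries. At the shares with 12 libraries a short gene list can be without a knockout call by its size alone. Counts of 0 in knockout hosts below are therefore given without being read as a result about a list. The knockout effect was smaller over the whole table, with an SD across genes of 0.38 against 0.70 in wild-type hosts. Across genes the 2 effects correlated at r = 0.77 (Spearman 0.65). Genes are not independent replicates, so this is a description only. Of the 2086 genes that rose in wild-type hosts, 1891 had a knockout effect above 0, with a median of 0.26 against 0.68 in wild-type hosts. Of the 2335 that fell, 2124 had a knockout effect below 0, with a median of -0.21 against -0.52. These genes were chosen by their wild-type effect, which is part of the difference, so the smaller knockout median is a description and no test.

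**Figure D1:**
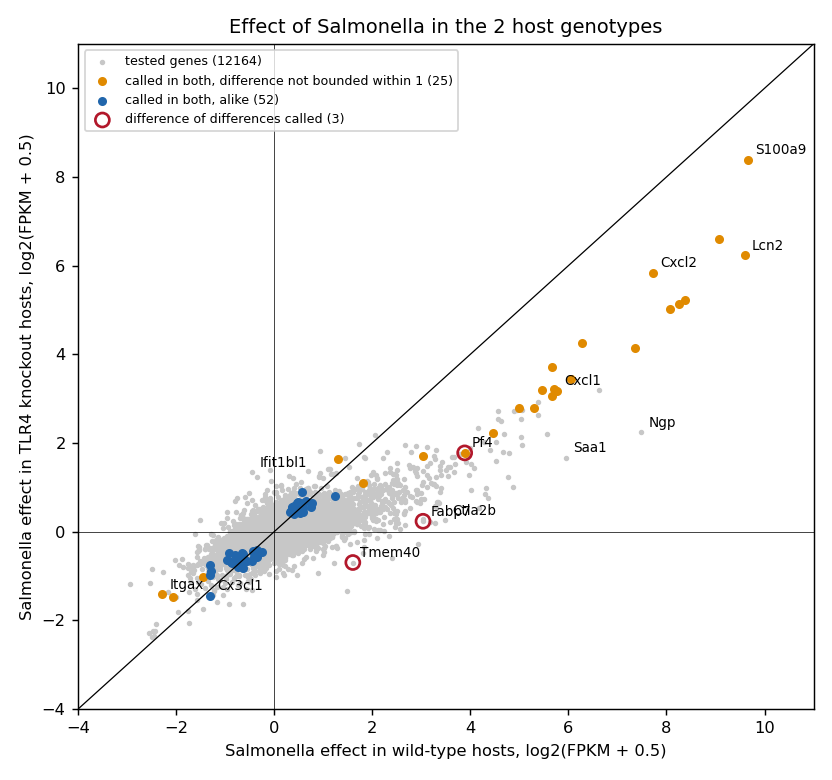
Effect of Salmonella in wild-type hosts (x axis) and in TLR4 knockout hosts (y axis), each as a difference of mean log2(FPKM + 0.5), for 12164 tested genes. The diagonal marks equal effects: the large rises lie below it, the 52 genes called alike lie close to it, and the 3 genes whose difference was called (Pf4, Tmem40 and Fabp7) are ringed.

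The test of the difference itself called 3 genes lower (0.0247% of those tested) and 0 higher (0%) with all 12 libraries. A further count shows what the test saw below its threshold: 940 genes were lower and 855 higher at an unadjusted p under 0.05, together 14.8% of those tested. With voom, which weights the values by the recovered fragment counts, 0 genes were called (1561 at an unadjusted p under 0.05) and the smallest adjusted p was 0.0515. With 11 libraries, 1233 genes were lower (10.2% of 12060) and 1064 higher (8.82%). The number of genes called thus rests on 1 library. Counts with 11 libraries below are to be read against these shares. For 9486 genes (78.0%) the 95% interval of the difference lay within a log2 of 1 in either direction. A difference larger than a fold of 2 thus lay outside the interval of each. Where the wild-type effect is itself small, such an interval does not show a like response. The estimate was below -1 for 501 genes and above 1 for 55, and the interval lay wholly below -1 for 44 genes and wholly above 1 for 1, Ifit1bl1.

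Pf4 and Tmem40 were called as rising less without TLR4, and so was Fabp7, a gene that entered the test only through the group where it was high. Their promoter windows are printed first, with those of the 3 genes with the largest loss of rise among those that rose in both genotypes and hold a C/EBP match (Lcn2, Retnlg and Saa3, chosen after the matches were seen). Hacd2 and Cx3cl1, a rise and a fall that were alike in both genotypes, are shown beside them. Each runs from 250 bases before to 50 after the start site as RefSeq gives it (GRCm38.p6, first window listed), 5′ to 3′. Capitals mark a match, on either strand, to 1 of 5 motifs searched: the NF-kB motif, AP-1 (TGANTCA), C/EBP (TTNNGCAA), the core of the interferon-stimulated response element (ISRE) and the core of the glucocorticoid response element (ACANNNTGT). None of the marked matches overlap. The windows are at chr5:90772185-90772484 (plus strand) for Pf4, chr6:115762417-115762716 (minus strand) for Tmem40, chr10:57784673-57784972 (plus strand) for Fabp7, chr2:32387690-32387989 (minus strand) for Lcn2, chr16:48872358-48872657 (plus strand) for Retnlg, chr7:46715627-46715926 (minus strand) for Saa3, chr16:35022171-35022470 (plus strand) for Hacd2 and chr8:94771930-94772229 (plus strand) for Cx3cl1.
Pf4: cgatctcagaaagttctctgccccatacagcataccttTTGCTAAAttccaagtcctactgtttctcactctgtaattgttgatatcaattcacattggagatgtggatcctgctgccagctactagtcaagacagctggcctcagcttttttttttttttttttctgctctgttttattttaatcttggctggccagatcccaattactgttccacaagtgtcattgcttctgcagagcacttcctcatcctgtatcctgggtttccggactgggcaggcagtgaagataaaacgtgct
Tmem40: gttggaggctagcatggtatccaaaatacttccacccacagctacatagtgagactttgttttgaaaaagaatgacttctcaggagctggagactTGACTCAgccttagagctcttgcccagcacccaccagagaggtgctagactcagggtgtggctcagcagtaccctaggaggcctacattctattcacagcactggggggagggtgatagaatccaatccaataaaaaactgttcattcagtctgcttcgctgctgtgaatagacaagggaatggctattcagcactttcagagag
Fabp7: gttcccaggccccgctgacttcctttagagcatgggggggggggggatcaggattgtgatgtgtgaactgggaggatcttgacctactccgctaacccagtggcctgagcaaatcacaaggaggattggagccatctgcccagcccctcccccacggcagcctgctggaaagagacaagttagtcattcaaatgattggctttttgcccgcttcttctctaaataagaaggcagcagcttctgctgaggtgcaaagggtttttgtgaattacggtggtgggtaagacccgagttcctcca
Lcn2: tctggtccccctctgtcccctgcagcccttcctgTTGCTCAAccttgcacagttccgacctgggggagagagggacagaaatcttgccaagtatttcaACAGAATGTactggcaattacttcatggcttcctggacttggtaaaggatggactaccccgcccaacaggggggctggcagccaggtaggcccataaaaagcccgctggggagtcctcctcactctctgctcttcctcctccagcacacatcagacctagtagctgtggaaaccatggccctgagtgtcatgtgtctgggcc
Retnlg: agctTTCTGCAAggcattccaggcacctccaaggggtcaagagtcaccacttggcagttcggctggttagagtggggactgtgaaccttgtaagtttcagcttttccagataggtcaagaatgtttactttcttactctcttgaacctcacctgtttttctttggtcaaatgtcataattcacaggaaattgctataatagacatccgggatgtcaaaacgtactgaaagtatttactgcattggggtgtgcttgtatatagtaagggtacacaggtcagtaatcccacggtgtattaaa
Saa3: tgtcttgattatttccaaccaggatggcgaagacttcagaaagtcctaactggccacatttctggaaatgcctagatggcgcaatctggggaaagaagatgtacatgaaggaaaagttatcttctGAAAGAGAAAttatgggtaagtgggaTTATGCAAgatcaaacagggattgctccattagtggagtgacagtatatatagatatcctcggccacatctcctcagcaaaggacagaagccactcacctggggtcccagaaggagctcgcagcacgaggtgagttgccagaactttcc
Hacd2: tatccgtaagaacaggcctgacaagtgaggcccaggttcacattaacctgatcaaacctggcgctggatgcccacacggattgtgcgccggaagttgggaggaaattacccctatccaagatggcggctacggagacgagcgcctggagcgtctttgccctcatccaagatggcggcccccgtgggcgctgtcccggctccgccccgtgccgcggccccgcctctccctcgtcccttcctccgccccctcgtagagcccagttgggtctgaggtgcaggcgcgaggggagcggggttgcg
Cx3cl1: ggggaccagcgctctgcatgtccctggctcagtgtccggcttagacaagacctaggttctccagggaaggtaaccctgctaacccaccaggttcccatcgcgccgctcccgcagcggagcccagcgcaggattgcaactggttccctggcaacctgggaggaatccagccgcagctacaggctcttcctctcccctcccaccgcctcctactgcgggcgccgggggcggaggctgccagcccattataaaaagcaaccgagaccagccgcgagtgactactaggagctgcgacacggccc

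Pf4 held 1 C/EBP match and Tmem40 1 AP-1 match, and the windows of Fabp7, Hacd2 and Cx3cl1 held none of the 5 motifs. Lcn2 held a C/EBP and a glucocorticoid core match, Retnlg a C/EBP match, and Saa3 a C/EBP and an interferon-response core match. Promoter windows were found by symbol for 9716 of the 12164 tested genes. Of those windows 8.4% held a C/EBP match, 10.3% an NF-kB match, 5.2% an AP-1 match, 3.3% an interferon-response core and 4.0% a glucocorticoid core. Of the 22 genes that rose in both genotypes without being called alike, 17 had a window, and 8 of these (47.1%) held a C/EBP match and 4 (23.5%) an NF-kB match. Of the 23 genes called alike that rose, 17 had a window, and 2 held a C/EBP match and 2 an NF-kB match. A match is a run of letters and not a shown binding site, and these sets are small, were formed from the values and were given no test.

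Pf4 encodes platelet factor 4, a chemokine stored in platelet granules, and lies at 90772435 to 90773383 on chromosome 5 (GRCm38, GENCODE M21). It was at 9.09, 9.44 and 9.85 FPKM in wild-type hosts given PBS and at 122, 131 and 142 with Salmonella. In knockout hosts it was at 7.14, 8.50 and 11 with PBS and at 38.7, 28.9 and 26.2 with Salmonella. PBS libraries of the 2 genotypes overlapped, the knockout Salmonella libraries lay above them, and the wild-type Salmonella libraries lay above all others. Pf4 rose in both genotypes, 14.74-fold in wild-type hosts and 3.42-fold in knockout hosts. The rise without TLR4 was 4.31-fold smaller, a difference of -2.11 (SE 0.22, adjusted p = 0.00863), and -2.14 with 11 libraries (adjusted p = 0.00195). Over 22 alternative settings the adjusted p ran from 0.00146 to 0.0515, and the gene was called in 21 of them.

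Tmem40 encodes a membrane protein whose transcript is found in platelets, and lies at 115729131 to 115762410 on chromosome 6. In wild-type hosts it was at 1.34, 1.45 and 0.845 FPKM with PBS and at 3.97, 3.76 and 4.9 with Salmonella. In knockout hosts it was at 1.7, 2.59 and 2.94 with PBS and at 1.01, 1.34 and 1.39 with Salmonella. The groups did not overlap in either genotype, and their order was opposite. The knockout PBS libraries also lay above the wild-type PBS libraries, so part of the difference lies in the PBS levels. The wild-type effect was a rise of 1.60 (adjusted p = 0.000448), while the knockout effect of -0.70 did not pass the test (adjusted p = 0.0981). The difference was -2.30 (SE 0.26, adjusted p = 0.00907), and -2.27 with 11 libraries. It was called in 19 of 22 alternative settings, with adjusted p from 0.00195 to 0.189.

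Fabp7 encodes a fatty acid-binding protein best known from glial cells, and lies at 57784881 to 57788450 on chromosome 10. It reached 5.72, 3.7 and 3.12 FPKM in wild-type hosts given Salmonella and lay between 0 and 0.355 in the other 9 libraries. The 3 wild-type Salmonella libraries thus stood alone. Fabp7 passed the filter on low values (0.5 FPKM in 3 libraries) only through those 3 libraries, and in all 296 of the 12164 tested genes needed the wild-type Salmonella libraries to pass. Its difference of -2.80 (SE 0.37, adjusted p = 0.0251) is therefore given as a description and not as support. Its mean level was under the minimum set for naming genes, so it was named after its value was seen, and it was called in 7 of the 18 alternative settings that kept it. With 11 libraries it missed the filter on low values, so no value can be given. The 296 genes include members of the lists below. They were 4 of 12 skeletal muscle, 2 of 13 neutrophil granule and 2 of 17 acute-phase and complement genes. Of the endothelial (21), platelet and red cell (8), coagulation (14) and heme (13) genes there were 2 each. Of the mature neutrophil (23), mast cell (7) and T and NK cell (22) genes there was 1 each. Saa1, Cd177, Fcer1a and Itga2b, named below, are among the 296. Such genes favour a wild-type rise and a difference below 0, and they stay in the list counts and medians. The counts and medians of these lists are therefore descriptions and not support for a difference.

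The next genes by p missed the threshold with all 12 libraries. Saa1, an acute-phase apolipoprotein, was at 30.1, 51.8 and 19.2 FPKM in wild-type hosts given Salmonella and at 2.67, 0.476 and 1.52 in knockout hosts given Salmonella, with at most 0.16 in the PBS libraries. Its difference was -4.29 (SE 0.62, adjusted p = 0.0833). Ctla2b, a cathepsin inhibitor related to a T cell transcript, was at 92.5, 79.2 and 50.2 FPKM in wild-type hosts given Salmonella and between 4.78 and 10.7 elsewhere. Its difference was -3.22 (SE 0.46, adjusted p = 0.0833), from a wild-type rise of 3.48 and a knockout effect of 0.25. Acy1, which deacetylates amino acids, rose by 0.90 in wild-type hosts and had a knockout effect of -0.37, a difference of -1.26 (adjusted p = 0.115). With 11 libraries the adjusted p was 0.00195 for Saa1 and for Ctla2b and 0.00775 for Acy1. Outside the wild-type Salmonella group, Saa1 reached 0.5 FPKM only in the knockout Salmonella libraries F-1 and M-2. Like Fabp7 it thus passed the filter only through the group where it was high. Its values are given as a description and not as support.

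**Figure D2:**
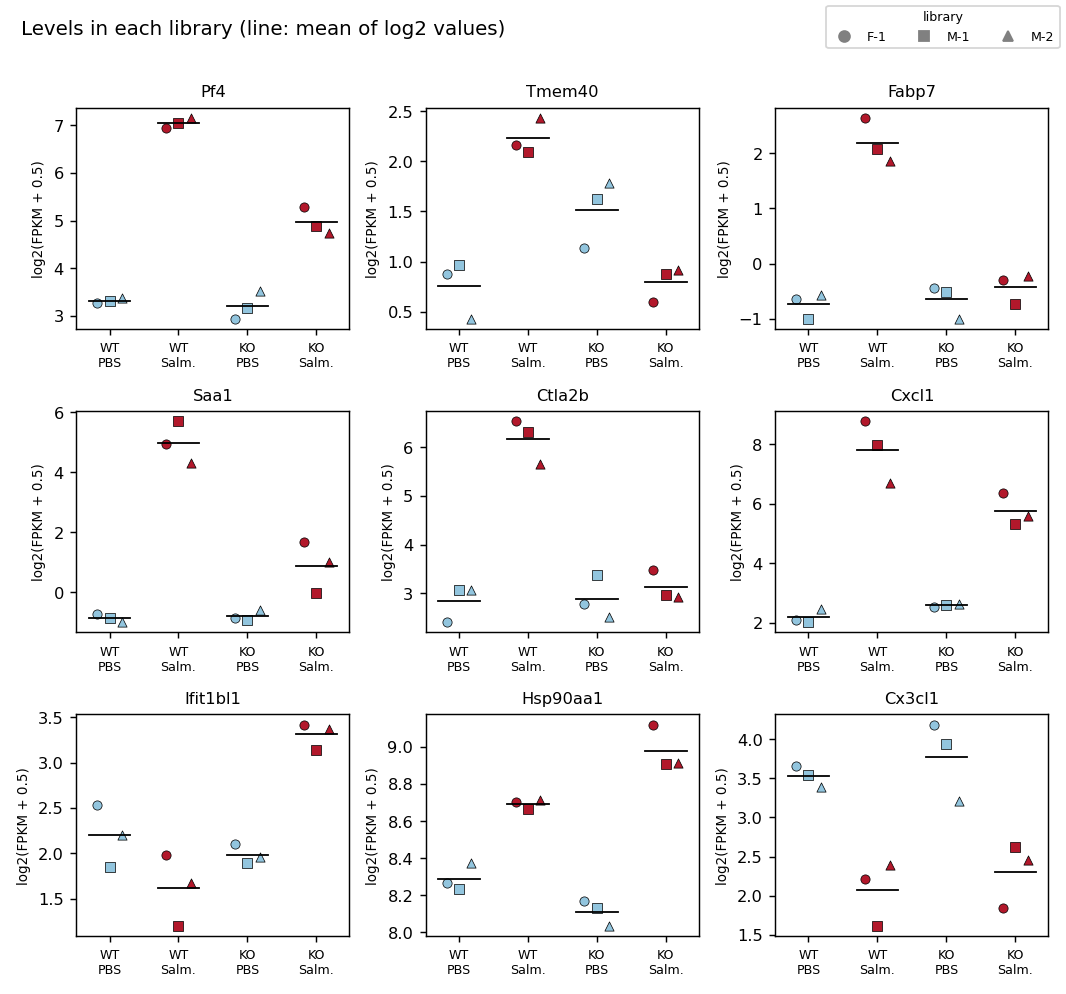
Deposited FPKM of 9 genes in each library, as log2(FPKM + 0.5), by host (WT, wild type; KO, TLR4 knockout) and treatment, with F-1, M-1 and M-2 as circles, squares and triangles and the mean as a line. Pf4 separates the 2 Salmonella groups with little spread, and Fabp7 is raised in wild-type Salmonella libraries only. Hsp90aa1 and Cx3cl1 move in the same direction in both hosts and were called alike within a log2 of 1. The Hsp90aa1 estimate was larger in knockout hosts (0.89 against 0.56).

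Neutrophil genes rose in wild-type hosts, some also rose in knockout hosts, and their estimates were smaller without TLR4. Each of the 23 tested mature neutrophil genes rose in wild-type hosts, and 9 rose in knockout hosts. Their median effect was 4.17 in wild-type and 1.71 in knockout hosts. The difference was below 0 for 23 of 23, with a median of -2.17, against 5556 of 12164 and 0.03 over all genes. None of the 23 was called with all libraries, and 17 were called with 11 libraries. At an unadjusted p under 0.05, 18 were lower, against 940 of 12164 over all genes. In bulk tumour RNA, fewer cells of a type and less RNA per cell cannot be told apart, here and for the other cell type lists.

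S100a8 and S100a9 encode the subunits of calprotectin, the most abundant protein of neutrophil cytosol. S100a8 was at 1455, 9109 and 1297 FPKM in wild-type and at 384, 238 and 389 in knockout hosts given Salmonella, with 2.08 to 8.73 in the 6 PBS libraries. The Salmonella libraries of the 2 genotypes did not overlap, and M-1 of the wild type was far above its mates. The difference was -2.46 (interval -4.61 to -0.31, adjusted p = 0.303) for S100a8 and -1.27 (interval -3.68 to 1.14, adjusted p = 0.555) for S100a9. Both rose in each genotype, by 9.07 and 6.61 for S100a8 and by 9.66 and 8.39 for S100a9. Cxcr2, the receptor that guides neutrophils along CXC chemokines, rose by 4.99 in wild-type and by 2.78 in knockout hosts. Its difference was -2.22 (SE 0.50, adjusted p = 0.195), and -2.68 with 11 libraries (adjusted p = 0.00195).

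The neutrophil granule genes were lower without TLR4 in most estimates, 11 of 13 being below 0. Of the 13 tested, 10 rose in wild-type and 3 in knockout hosts, with median effects of 4.32 and 0.77 and a median difference of -2.60. Ngp, a protein of secondary granules, was at 82.7, 284 and 35.5 FPKM in wild-type and at 4.33, 1.04 and 1.35 in knockout hosts given Salmonella. It was listed at 0 in the 3 knockout PBS libraries, so its fitted difference depends on the added 0.5 and is not a fold. Setting such genes to 3 fragments per library left the medians of the granule and mature neutrophil lists at -2.60 and -2.17. Cd177, a neutrophil surface protein, was at 6.66, 25.1 and 4.49 FPKM against 1.19, 0.218 and 0.387 in the Salmonella libraries. Its difference was -3.64 (adjusted p = 0.187). Cd177 passed the filter on low values only through the wild-type Salmonella libraries, so this value is a description and not support. Lcn2, whose protein captures the iron carriers of bacteria, rose in both genotypes, by 9.60 and 6.23. It was at 809, 2314 and 416 FPKM in wild-type and at 94.1, 38.6 and 143 in knockout hosts given Salmonella, a difference of -3.36 (adjusted p = 0.262), and -4.02 with 11 libraries (adjusted p = 0.0300).

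The chemokines that attract neutrophils rose in wild-type hosts in 5 of 5 tested and in knockout hosts in 4 of 5. Their median effects were 6.04 and 3.44, and the median difference was -2.59. Cxcl1 was at 435, 247 and 104 FPKM in wild-type and at 80.5, 39.2 and 47.7 in knockout hosts given Salmonella, with 3.54 to 5.63 in the PBS libraries. It rose in both hosts, and its difference was -2.59 (SE 0.68, adjusted p = 0.217). Cxcl5 gave -2.61 (adjusted p = 0.217), Cxcl3 -3.16 (adjusted p = 0.231) and Cxcl2 -1.89 (adjusted p = 0.369). With 11 libraries, 3 of the 5 were called. Csf3, the growth factor of neutrophils, rose by 6.62 in wild-type hosts, while its knockout effect of 3.19 did not pass the test (adjusted p = 0.0842). It was at 62.7, 152 and 11.9 FPKM against 5.83, 2.34 and 5.3 in the Salmonella libraries. In knockout hosts given PBS it was at 0, 0.0134 and 0.0142, so the knockout groups did not overlap.

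Acute-phase and complement genes had a difference below 0 in 17 of 17 tested, with a median of -1.24. In wild-type hosts 11 rose, and in knockout hosts 1 rose, Saa3. Saa3, a serum amyloid made by many inflamed cells, was at 5348, 5207 and 2988 FPKM in wild-type and at 672, 176 and 598 in knockout hosts given Salmonella. Its PBS libraries ran from 5.97 to 53.9, and its difference of -3.05 had a wide interval, -5.63 to -0.47 (adjusted p = 0.30). Hp, haptoglobin, which was listed with the granule genes, rose in both hosts, by 5.30 and 2.79, a difference of -2.51 (adjusted p = 0.217).

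**Figure D3:**
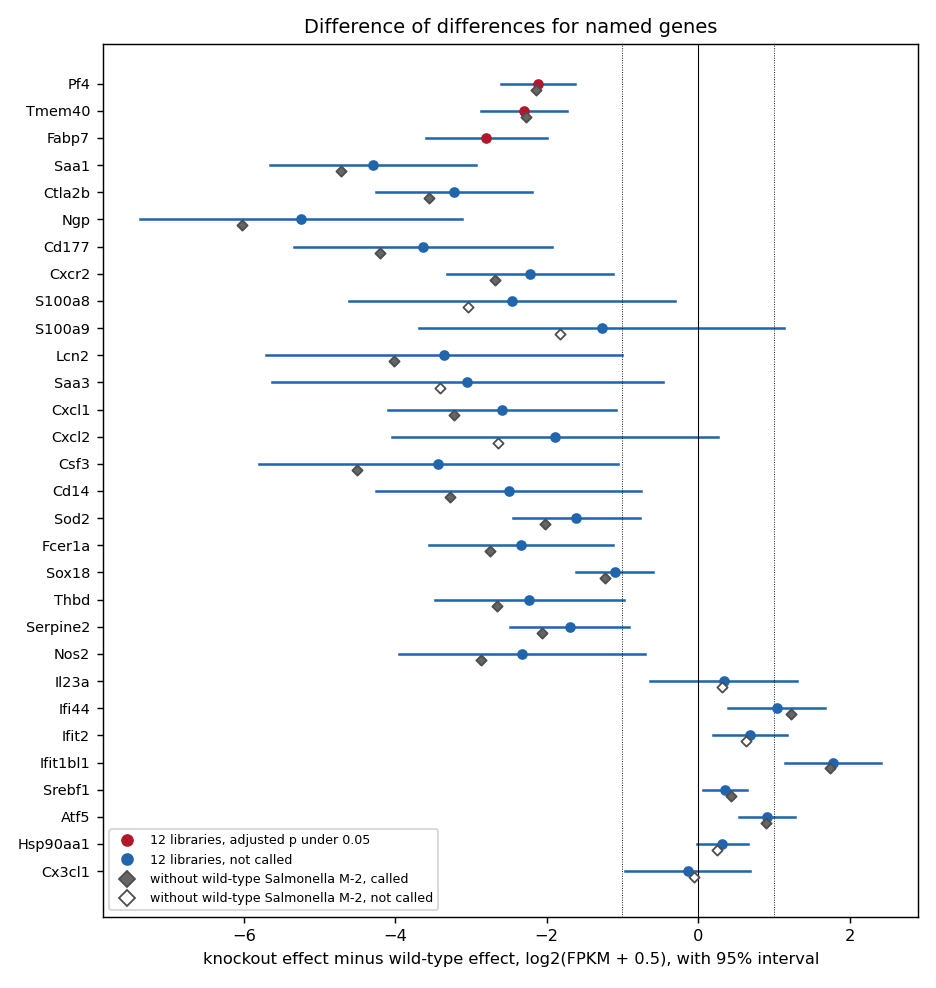
Difference of differences for 30 named genes, with all 12 libraries (circles, with 95% interval) and without the wild-type Salmonella M-2 library (diamonds, filled where called), in log2(FPKM + 0.5). Dotted lines mark a difference of 1 in either direction. Saa1, Cd177, Fcer1a and Fabp7 passed the filter on low values only through the wild-type Salmonella libraries. The neutrophil, chemokine and acute-phase genes have wide intervals and estimates below 0, most but not S100a8, S100a9, Saa3 and Cxcl2 are called without that library, and Fabp7 has no diamond because it missed the filter there.

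The genes of TLR4 signalling itself had estimates on both sides of 0. Among 23 genes of the complex, adaptors and kinases the median difference was 0.04, and 16 had an interval within 1, against 9486 of 12164 over all genes. Cd14, the lipopolysaccharide co-receptor, was at 352, 545 and 102 FPKM in wild-type and at 67.6, 38.4 and 54.8 in knockout hosts given Salmonella. It rose by 4.69 in wild-type hosts, while the knockout effect of 2.19 did not pass the test (adjusted p = 0.0981). Its knockout PBS libraries were at 8.25, 15.7 and 10.7 FPKM, below its knockout Salmonella libraries. Its difference was -2.50 (adjusted p = 0.262), and -3.28 with 11 libraries (adjusted p = 0.00379). Lbp, Ly96, the inducible kinase Ikbke and the inhibitory kinase Irak3 were the other 4 of the 5 with an unadjusted p under 0.05, at -1.45, -0.79, -1.66 and -2.07. Myd88 gave 0.02, Tirap 0.08, Ticam1 0.26 and Ticam2 -0.05.

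NF-kB subunits, targets and feedback inhibitors had a difference below 0 in 25 of 25 tested, with a median of -1.04. In wild-type hosts 19 of them rose and in knockout hosts none, with median effects of 1.28 and 0.27. With all libraries 0 were called, and with 11 libraries 17 were called. At an unadjusted p under 0.05, 12 were lower, against 940 of 12164 over all genes. Sod2, the mitochondrial superoxide dismutase and an NF-kB target, was at 90.7, 87.5 and 45.1 FPKM in wild-type and at 31.3, 23.3 and 28.8 in knockout hosts given Salmonella, with 16.7 to 19.3 in the PBS libraries. The Salmonella libraries of the 2 genotypes did not overlap, and the difference was -1.61 (SE 0.38, adjusted p = 0.214). Nfkbia, the inhibitor that ends the NF-kB signal, gave -1.21, and Tnfaip3 gave -1.69. The subunit gene Nfkb2 gave -0.02 and Nfkb1 gave -0.16, with intervals within 1.

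Cytokines and growth factors of inflammation gave a median difference of -0.93 over 20 tested, 17 of them below 0. Of these, 11 rose in wild-type hosts and 1 in knockout hosts. Il1b, a product of activated macrophages and neutrophils, was at 268, 756 and 117 FPKM in wild-type and at 71.4, 52.8 and 103 in knockout hosts given Salmonella, a difference of -2.21 (adjusted p = 0.303). The cytokine that rose in both hosts was Il23a, a subunit of interleukin-23. It was at 6.15, 3.4 and 5.17 FPKM in wild-type and at 6.92, 6.07 and 5.75 in knockout hosts given Salmonella. Its difference was 0.34 with an interval from -0.64 to 1.31, too wide to be called alike.

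**Figure D4:**
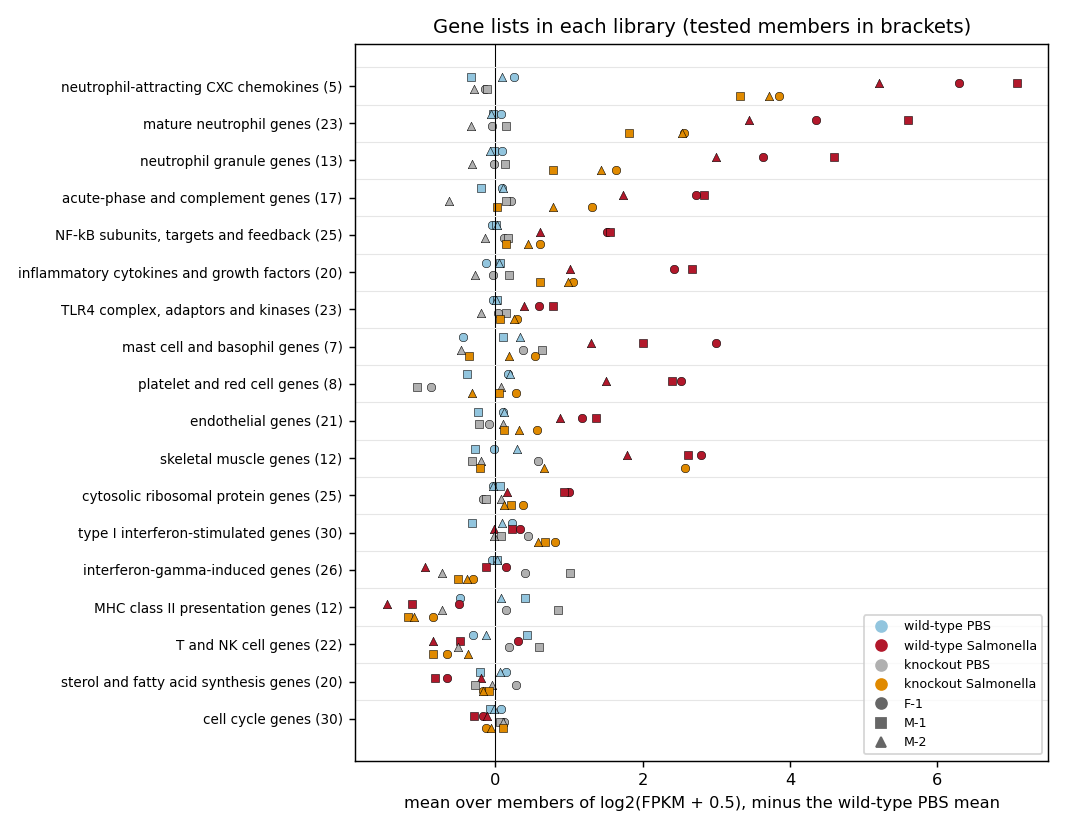
Mean over the tested members of 18 gene lists in each library, as log2(FPKM + 0.5) minus the mean of the wild-type PBS libraries. For the neutrophil, chemokine and mast cell lists the wild-type Salmonella libraries lie to the right of the knockout Salmonella libraries, with M-2 (triangle) nearest to them. Type I interferon-stimulated genes lie furthest right in the knockout Salmonella libraries, while the knockout PBS libraries overlap the wild-type ones. Cell cycle genes overlap.

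Interferon-stimulated genes had estimates mostly above 0. Of 30 tested type I interferon-stimulated genes, 26 had a difference above 0, with a median of 0.41 against 0.03 over all genes. At an unadjusted p under 0.05, 11 were higher, against 855 of 12164 over all genes. The list's mean, relative to wild-type PBS, was 0.34, 0.23 and -0.02 in wild-type and 0.81, 0.67 and 0.58 in knockout hosts given Salmonella. The 2 Salmonella groups did not overlap, and the PBS libraries ran from -0.32 to 0.44. With all libraries 0 were called, and with 11 libraries 2 were called higher and 1 lower, no larger a share than over all genes (8.82% and 10.2%). Ifit1, which binds viral RNA, was at 69.2, 78.2 and 66.2 FPKM in knockout hosts given Salmonella and between 24.6 and 43.4 in the other 9 libraries. It rose in knockout hosts by 0.96 (adjusted p = 0.0441), and its difference was 0.69 (adjusted p = 0.299). Ifi44, another interferon-induced gene, fell by 0.68 in wild-type hosts, had a knockout effect of 0.37, and gave 1.04 (adjusted p = 0.231).

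Interferon-gamma-induced genes and antigen presentation genes gave differences near 0 with wide intervals. The median was -0.07 over 26 interferon-gamma-induced genes, of which 2 had an interval within 1, and 0.06 over 12 MHC class II genes, of which 1 had. The MHC class II median effect was -0.94 in wild-type and -1.03 in knockout hosts, and 7 fell in wild-type hosts and 0 in knockout hosts. The class II list's mean ran from -0.72 to 0.85 over the knockout PBS libraries, a spread that limits this comparison. In the interferon-gamma list 2 genes were lower at an unadjusted p under 0.05, Nos2 and Acod1. Nos2, the inducible nitric oxide synthase, was at 129, 137 and 50.3 FPKM in wild-type and 41.8, 16.1 and 31.7 in knockout hosts given Salmonella (difference -2.32, adjusted p = 0.262). Acod1, which makes itaconate, gave -2.18 (adjusted p = 0.303), and -2.77 with 11 libraries (adjusted p = 0.0418). T and NK cell genes had a median of -0.38 over 22 tested, none at an unadjusted p under 0.05.

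Most mast cell genes rose in wild-type hosts. Of 7 tested, 6 rose in wild-type and 0 in knockout hosts, with median effects of 2.48 and -0.02 and a median difference of -2.34. With 11 libraries, 5 of the 7 were called. Fcer1a, the high-affinity IgE receptor subunit, was at 10.2, 4.37 and 3.14 FPKM in wild-type hosts given Salmonella. In knockout hosts given Salmonella it was at 0.598, 0.427 and 1.05, a difference of -2.34 (adjusted p = 0.214). Fcer1a passed the filter on low values only through the wild-type Salmonella libraries, so its difference is a description and not support. Mcpt4, a mast cell protease, was at 27.2, 11.6 and 6.49 FPKM in wild-type Salmonella libraries and from 1.43 to 4.51 elsewhere, a difference of -3.00 (adjusted p = 0.217). The spread between the wild-type libraries was wide for both, and neither group of values overlapped with the knockout Salmonella libraries.

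Vessel, platelet and red cell genes had smaller estimates without TLR4. Of 21 endothelial genes 19 rose in wild-type and 0 in knockout hosts, and 20 had a difference below 0, with a median of -0.79. At an unadjusted p under 0.05, 16 were lower, against 940 of 12164 over all genes. With 11 libraries 10 of 19 tested were called. Sox18, an endothelial transcription factor, was at 9.97, 11.5 and 9.75 FPKM in wild-type and 4.67, 3.63 and 4.57 in knockout hosts given Salmonella, a difference of -1.10 (SE 0.23, adjusted p = 0.186). The receptor Kdr gave 0.01 (wild-type effect 0.18, adjusted p = 0.423). Among the 8 platelet and red cell genes, Pf4 and Tmem40 were the 2 called. The platelet integrin Itga2b gave -0.42 (adjusted p = 0.409) at 0.308 to 0.706 FPKM, and it needed the wild-type Salmonella libraries to pass the filter. The haemoglobin gene Hbb-bs was at 242, 237 and 92.7 FPKM in wild-type and 31.4, 24.7 and 14.9 in knockout hosts given Salmonella (-1.49, adjusted p = 0.387). Whether blood content had a part in the difference for Pf4 was not tested. Hbb-bs ran from 15.6 to 36.7 FPKM in wild-type PBS and from 4.77 to 17.6 in knockout PBS libraries.

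Muscle and ribosomal protein genes moved with single libraries. The skeletal muscle list had a median difference of -1.52 over 12 tested, 4 of which passed the filter only through the wild-type Salmonella libraries. The list's mean was 2.79, 2.62 and 1.79 in wild-type Salmonella libraries. In knockout Salmonella libraries it was 2.57, -0.21 and 0.66, F-1 being within the wild-type range. The 25 cytosolic ribosomal protein genes had a difference below 0 in 25 of 25 with a median of -0.39. Their mean was 1.00 in F-1, 0.94 in M-1 and 0.16 in M-2 of the wild-type Salmonella group and 0.12 to 0.38 in knockout Salmonella libraries, so M-2 lay within the knockout range. Without it 22 of the 25 were called, and with it 0. The part of muscle content or of ribosomal transcripts in the other differences was not tested.

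Among falls, 0 genes were called as smaller without TLR4 with all libraries. Kctd15, a BTB-domain protein gene, fell in wild-type hosts by 1.08, from 10.5, 11.7 and 11.8 to 3.71, 4.2 and 5.98 FPKM, while in knockout hosts it went from 11.7, 10.7 and 10.4 to 8.38, 9.63 and 10.1. The wild-type groups did not overlap, and the difference was 0.89 (SE 0.16, adjusted p = 0.132), and 0.99 with 11 libraries (adjusted p = 0.00235). Atf5, a transcription factor of stress responses, fell by 1.14 in wild-type hosts, had a knockout effect of -0.23, and gave 0.91 (adjusted p = 0.146). Sterol and fatty acid synthesis genes had a difference above 0 in 19 of 20, with a median of 0.46: 11 fell in wild-type hosts and 0 in knockout hosts, and 7 were called with 11 libraries. Scd1, which makes monounsaturated fatty acids, was at 33, 27.5 and 52.5 FPKM in wild-type and 54.3, 62.4 and 55.4 in knockout hosts given Salmonella (0.61, adjusted p = 0.267).

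Genes that responded alike were defined as called in both genotypes, in the same direction, with the 95% interval of the difference within 1. There were 52: 23 rose and 29 fell. The margin is wide: for 2 of them, Espn and Plekha2, the interval excluded 0 (0.16 to 0.96 and 0.15 to 0.71), and these and Ssc5d were called different with 11 libraries. With a margin of a fold of 1.5 in its place 41 remained, and Hacd2, Hsp90aa1 and Cx3cl1, described below, were not among them. In all, 77 genes were called in both genotypes, each in the same direction in both. The 25 others were 22 rises, among them S100a8, S100a9, Lcn2, Saa3, Retnlg, Cxcl1, Cxcl2, Cxcl3, Cxcl5 and Cxcr2, and 3 falls, among them Itgax and Spon2. The alike count depends on the few knockout calls. It was 393 with 11 libraries, with 50 of the 52 among them, 174 without knockout PBS M-2, and 0 without knockout Salmonella F-1.

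Hsp90aa1, an inducible cytosolic chaperone, was the most abundant of the alike rises named. It was at 307, 300 and 331 FPKM with PBS and 416, 405 and 420 with Salmonella in wild-type hosts, and at 287, 280 and 262 with PBS and 556, 480 and 481 with Salmonella in knockout hosts. The groups did not overlap in either host. It rose by 0.56 and 0.89, a difference of 0.32 (interval -0.01 to 0.66). Hacd2, an enzyme of very long chain fatty acid elongation, rose by 1.24 and 0.79, a difference of -0.44 (interval -0.92 to 0.04). Of the other alike rises, several serve RNA: Taf1a in transcription by RNA polymerase I, Trmt10c in mitochondrial tRNA processing, Upf3b in nonsense-mediated decay and Pnpt1 in mitochondrial RNA turnover, with differences from -0.06 to 0.12. These examples were grouped after their names were seen.

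Cx3cl1, the membrane-bound chemokine fractalkine, had the largest knockout effect of the alike falls. It went from 12.1, 11.1 and 10 to 4.12, 2.57 and 4.73 FPKM in wild-type hosts and from 17.7, 14.8 and 8.73 to 3.08, 5.67 and 4.99 in knockout hosts. It fell by 1.32 and 1.45, a difference of -0.14 (interval -0.96 to 0.68). Its receptor Cx3cr1 was not called alike. It fell by 2.94 in wild-type hosts, to 0.0477, 0.0524 and 2.6 FPKM. Its knockout effect of -1.19 did not pass the test (adjusted p = 0.260), though the knockout groups did not overlap. They were at 10.4, 7.14 and 6.54 FPKM with PBS and at 2.51, 3.78 and 3.19 with Salmonella. The difference for Cx3cr1 was 1.74 (adjusted p = 0.324), and 2.55 with 11 libraries (adjusted p = 0.000777). Other alike falls with narrow intervals were Adgra2, a Wnt co-receptor (-0.74 and -0.80), the smooth muscle gene Smtn (-0.87 and -0.71), the collagen receptor Mrc2 (-0.89 and -0.70) and Ltbp3, which binds latent TGF-beta (-0.78 and -0.67). The integrin Itgax, a marker of dendritic cells and some macrophages, fell in both hosts, by 2.29 and 1.41, with an interval from 0.23 to 1.53 for the difference. For the 30 cell cycle genes, each interval lay within 1, against 9486 of 12164 over all genes, with a median of 0.04. Their median effects were only -0.21 in wild-type and -0.10 in knockout hosts, so these intervals do not show a like response. Of these 30, 12 fell in wild-type hosts and 0 in knockout hosts.

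No gene was called as responding more without TLR4 with all libraries, and 39 were (21 rises and 18 falls) with 11 libraries. Ifit1bl1, of the Ifit family of interferon-induced genes, was nearest. It was at 10.2, 8.34 and 9.84 FPKM in knockout hosts given Salmonella, above 3.8, 3.21 and 3.4 with PBS. In wild-type hosts it was at 3.44, 1.8 and 2.69 with Salmonella and 5.3, 3.11 and 4.11 with PBS. It rose by 1.34 in knockout hosts (adjusted p = 0.0183), and its wild-type effect was -0.45 (adjusted p = 0.105). The difference was 1.78 (SE 0.29, adjusted p = 0.0999), and it was called in 5 of 22 alternative settings. Like Ifit1 and Ecrg4 it belongs to the 13 genes called in knockout hosts only. Ecrg4, a secreted peptide precursor, fell by 1.33 in knockout hosts, with a wild-type effect of -0.45 and a difference of -0.88 (adjusted p = 0.269).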

How the data were processed

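RNA of 12 samples of MC38 tumour tissue was extracted with TRIzol and made into libraries with the VAHTS Universal V6 kit, per the labels' protocols, which do not state whether strand was kept. The submitters' processing notes name fastp, HISAT2 and HTSeq, and which genome build was used is "not given in the sources used here". Deposited values are FPKM per gene, a unit inferred from the values. In each library the deposited FPKM of 18222 of 18222 genes with a value came out as whole fragments within 0.01 for a whole gene length, and the recovered totals gave the depth.

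Groups were taken from the labels. FPKM were divided by a factor per library, a trimmed mean of log2 ratios (30% of ratios and 5% of levels trimmed; 0.871 and 0.882 in the F-1 and M-1 libraries of wild-type hosts given Salmonella, 0.991 to 1.038 for the others). Genes with at least 0.5 FPKM in 3 libraries were kept, and log2(FPKM + 0.5) was fitted with limma 3.58.1 in R 4.3.3 (4 group means, trend and robust, 8 residual degrees of freedom before moderation), with p-values adjusted over all genes tested by Benjamini-Hochberg. The difference of differences uses all 12 libraries. The wild-type and knockout effects share no library, but their tests share an estimate of the spread over all groups and are not independent. Alike means called in both genotypes in 1 direction with the 95% interval of the difference within a log2 of 1. A rise or fall counted as reduced where it was called in wild-type hosts and the difference was called toward 0. Larger without TLR4 means that the knockout effect and the difference were called in 1 direction.

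Genes were named by rule: Tlr4, the largest differences of each class with a mean log2 level above 1 and no overlap between groups, and per gene list the 2 tested members with the smallest p. Further genes were added after their values were seen, among them Fabp7, Saa3, S100a8, S100a9, Lcn2, Il1b, Ctla2b, Kctd15, Ifit1, Ifit1bl1, Hbb-bs and the neighbours of those in their lists. The comparison, the members and the lists were chosen with earlier results of these data known. The fit was tried on simulated data with the same spread set for every group. That trial does not cover the larger spread of the wild-type Salmonella group seen here. Alternatives were other scalings, pseudocounts and filters, weights per group, voom, a replicate block, the letter of the title, and each library left out. Promoter windows came from RefSeq (GRCm38.p6) and gene positions from GENCODE M21, whose build may differ from that of the authors. Results for some genes are not reported here.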

Additional observations from a re-analysis of the deposited data

Results flagged for a closer look

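For Pf4 and Tmem40 the effect of Salmonella differed between wild-type and TLR4 knockout hosts by the test of the difference itself. The difference was -2.11 for Pf4 and -2.30 for Tmem40 on the log2(FPKM + 0.5) scale. The same test called Fabp7 at -2.80, but that gene passed the filter on low values only through the wild-type Salmonella libraries and was called in 7 of 18 alternative settings. Pf4 and Tmem40 had nearly the same value without the wild-type Salmonella M-2 library, at -2.14 and -2.27, and Fabp7 could not be fitted there.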

How the results depend on the processing

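With the FPKM as deposited, 5 differences were called lower and 1 higher, 5 rises and 1 fall were reduced without TLR4, 27 genes were alike and 1 was larger without TLR4. With no filter, 1 was called higher, 1 fall was reduced and 22 genes were alike. With the title letter as a term, 1 was called higher, 1 fall was reduced and 1 was larger without TLR4. With the letter M libraries alone, 1 was lower, 1 rise was reduced and 0 were alike. Weights per group gave 252 alike. With voom 0 were lower, 0 rises were reduced and 16 were alike.

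Library labels shared between groups were checked for pairing: over 18 same-label pairs the correlation of deviations ran from -0.33 to 0.40, with 7 above 0.1, and 5 of 12 libraries correlated best with their own label. The labels were therefore taken as names. With the replicate block, 1 difference was called higher, 1 fall was reduced, 28 genes were alike and 1 was larger without TLR4.

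Leaving out each library in turn gave 1 to 1233 differences called lower, 0 to 1064 higher, 1 to 1197 reduced rises, 0 to 1014 reduced falls, 0 to 393 alike and 0 to 39 larger without TLR4, the highest value each time without wild-type Salmonella M-2. The lowest counts of lower calls and of reduced rises came without knockout PBS M-1, when Pf4 alone was called. Without wild-type Salmonella F-1, Ifit1bl1 was called higher. With the FPKM as deposited, the title letter and the replicate block, the higher call, the reduced fall and the gene larger without TLR4 are 1 gene, Ifit1bl1, which then passed both definitions. For the changes of these counts the cause was not tested. Estimates changed sign for 4 genes, none of them called: Ccr7 with the letter M libraries alone (0.16) and, with single libraries left out, Cd79a (-0.06 to 0.49), Lpl (-0.31 to 0.01) and Il23a (-0.08 to 0.60). With 3 libraries a group, a difference had a median SE of 0.19, and genes of the neutrophil lists had larger ones. One fragment in 1 kb was worth 0.0258 to 0.0328 FPKM, so values below 0.0983 rest on 3 fragments or fewer for a gene of that length.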

Other observations

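Several lists outside the comparisons above had estimates mostly on one side of 0. Among 14 coagulation and fibrinolysis genes the median difference was -0.82, 11 were below 0 and 8 of these had an unadjusted p under 0.05. Over all genes 940 of 12164 were lower at such a p. Serpine2, a protease inhibitor, was at 9.26, 11.5 and 5.54 FPKM in wild-type and at 2.72, 2.36 and 3.18 in knockout hosts given Salmonella, a difference of -1.69 (limma adjusted p = 0.186). Of 13 heme and iron handling genes 10 rose in wild-type hosts and 0 in knockout hosts, with a median difference of -0.54. Hmox1, which degrades heme, was at 1127, 959 and 643 FPKM in wild-type and at 441, 290 and 389 in knockout hosts given Salmonella (-1.15, adjusted p = 0.24). The ferritin heavy chain gene Fth1 gave -1.19 (adjusted p = 0.217).

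Of 24 hypoxia and glycolysis genes 20 had a difference above 0, with a median of 0.24, and 11 fell in wild-type hosts and 0 in knockout hosts. Pfkfb3, a regulator of glycolysis, lay on the other side: it was at 39, 55 and 21.8 FPKM in wild-type and at 14.2, 8.33 and 15.5 in knockout hosts given Salmonella, and gave -1.64 (adjusted p = 0.25). The 25 oxidative phosphorylation genes had a median of -0.22, with 22 intervals within 1, against 9486 of 12164 over all genes. The monocyte-attracting CC chemokines had median effects of 2.03 in wild-type and 1.34 in knockout hosts over 9 tested, and 7 differences were below 0. Ccl2 was at 971, 542 and 428 FPKM in wild-type and at 347, 316 and 296 in knockout hosts given Salmonella (-1.42, adjusted p = 0.252). With the FPKM as deposited the median differences of these 5 lists were -0.69, -0.46, 0.37, -0.08 and -0.86, in the order given, against 0.16 over all genes. None of the differences named here was called with 12 libraries.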
